A study of Mus musculus with 36 samples.

Results

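The 4 oligoadenylate synthetase genes Oas1b, Oas1g, Oas2 and Oas3 were read on a targeted panel of 988 genes in mouse colon, colon tumours and grafted tumours. They were taken as named rows of the 2 deposited count tables, and were picked when lower levels of some of them in sash than in wild-type preneoplastic lesions were already known. That comparison, and the others that use the same lesion libraries, are therefore described below with values and SE but without a test of the 4 genes. The panel held 11 entries of this gene family in all, so 7 others could be set beside the 4.

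Oligoadenylate synthetases are enzymes of the antiviral defence that interferon induces. When they bind double-stranded RNA they join ATP into short linked chains of adenylate, and these chains activate RNase L, a nuclease that cuts viral and cellular RNA. In the gut the genes are known as part of the interferon response of epithelial and immune cells, and their RNA is widely used as a readout of interferon signalling. Transcription is driven by interferon-activated factors, Irf9 among them, that bind GAAA-type elements in their promoters. Oas1g encodes a small synthetase with a single catalytic unit. Oas2 and Oas3 encode larger proteins built of repeated synthetase units. Oas1b is the flavivirus resistance gene of the mouse, and most laboratory strains, C57BL/6 included, carry a truncated form.

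All groups were C57BL/6 mice or tissue grown in them. Sash mice carry the Kit W-sash mutation, a regulatory change at the Kit locus, and are kept as a model of mast cell deficiency. The comparison with wild type bears on the study's question of what mast cells do in colon tumours and their early steps. Azoxymethane (AOM) is a carcinogen of the colon epithelium. Sash tumours (n = 5) and wild-type tumours (n = 5) were taken at 32 weeks of age. The animals had 6 weekly AOM injections of 10 mg/kg, and 18 weeks passed after the last one. Sash lesions (n = 3) and wild-type lesions (n = 3) were preneoplastic colon samples at 14 weeks, taken 3 weeks after a 3-week course of 3 AOM injections, whose dose the labels do not give. A further set of 14-week wild-type animals received cromolyn, a drug that stabilises mast cells, either during the 3 weeks of AOM (n = 3) or in the 3 weeks after it (n = 3), or AOM only (n = 3). The AOM-only group has the same labelled treatment and age as the wild-type lesions. Tumours of MC-38, a C57BL/6 colon carcinoma line, were grown in sash hosts (n = 5 analysed) and wild-type hosts (n = 4 analysed), whose treatment label is saline. Since the graft is 1 cell line, the genotype there is that of the host alone.

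Libraries held 449880 to 1264354 counts in the AOM table and 480136 to 986415 in the MC-38 table. Levels are given as CPM, the count of a gene relative to the scaled total of its library. Kit ranged over 49.7 to 99.3 CPM in sash tumours against 95.3 to 476 CPM in wild-type tumours, and over 114 to 143 CPM in sash lesions against 334 to 509 CPM in wild-type lesions. In MC-38 tumours Kit was low in both, at 2.05 to 23.2 CPM in sash and 5.97 to 18.1 CPM in wild-type hosts. Epcam, the epithelial marker, lay at 9591 to 34760 CPM in every colon and colon tumour library and at 0 to 3.32 CPM in MC-38 tumours. Whether the samples of a group were different mice is not labelled, and the p-values therefore rest on a spread between samples that could in part be technical. In bulk tissue, fewer cells of a type and less RNA per cell cannot be told apart.

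The 11 family entries lie on chromosome 5. In the RefSeq annotation of GRCm38.p6 the genes follow each other in the order Oas2, Oas3, Oas1e, Oas1c, Oas1b, Oas1f, Oas1h, Oas1g and Oas1a, with Oas1d beyond the pseudogene Gm7573, and Oasl1 lies elsewhere on the chromosome. Oas1b is annotated there as a transcribed pseudogene of the C57BL/6J reference. The authors' amplicons are not given, and the name Oas1b is also an older synonym of Oas1g, so which transcript each of these 2 entries reads is not settled. Of all 50-base words in Oas1g transcripts, 45.7% also occur in other family transcripts, nearly all of them in Oas1a (45.2%). Reads could thus have been shared between these 2 genes, and the Oas1g values are uncertain for that reason. The same share was 1.17% for Oas1b and 0% for Oas2 and Oas3.

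The promoters of Oas1g and Oas3 are printed because interferon acts on these genes through such sequences. Whether the sequences bear on the levels below was not tested. The 250 bases before the start site come from RefSeq (GRCm38.p6), at chr5:120887614-120887863 for Oas1g and chr5:120777660-120777909 for Oas3, both read 5′ to 3′ on the minus strand. Capitals mark matches to GAAA, any 2 bases, GAAA, the core of an interferon-stimulated response element.
Oas1g: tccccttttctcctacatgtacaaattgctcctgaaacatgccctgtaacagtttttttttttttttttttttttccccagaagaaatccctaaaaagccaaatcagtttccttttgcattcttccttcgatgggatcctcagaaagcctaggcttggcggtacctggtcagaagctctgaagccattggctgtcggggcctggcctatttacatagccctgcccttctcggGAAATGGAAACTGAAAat
Oas3: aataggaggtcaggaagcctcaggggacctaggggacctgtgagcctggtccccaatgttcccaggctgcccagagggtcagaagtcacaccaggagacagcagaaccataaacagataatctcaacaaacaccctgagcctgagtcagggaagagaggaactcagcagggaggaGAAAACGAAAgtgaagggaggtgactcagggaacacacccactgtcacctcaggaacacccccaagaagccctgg
Oas1g had 2 matches that overlap, 18 to 9 and 12 to 3 bases before the start, and Oas3 had 1 match, 75 to 66 bases before it. Over all 32851 windows of the same length, searched on both strands, 2.98% held the GAAA pair with 2 bases between. Promoters were at hand for 2 of the 4 genes and for 7 of the 11 family entries, of which Oas1a, Oas1c, Oas1g and Oas3 held the GAAA pair. A match of letters is a description and not a measured site.

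The 4 genes had their highest mean in wild-type lesions among the 7 groups of the AOM table. Together they took 0.107% to 0.310% of all counts in wild-type lesions, against 0.0189% to 0.0277% in AOM-only colons. Below the wild-type lesions the order of the groups differed from gene to gene and the libraries of neighbouring groups mostly overlapped. Between neighbours in that order the libraries were separate only for Oas3, between wild-type lesions and cromolyn after AOM (means 4.40-fold apart), and for Oas1g, between AOM only and sash tumours (3.59-fold apart).

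**Figure D1:**
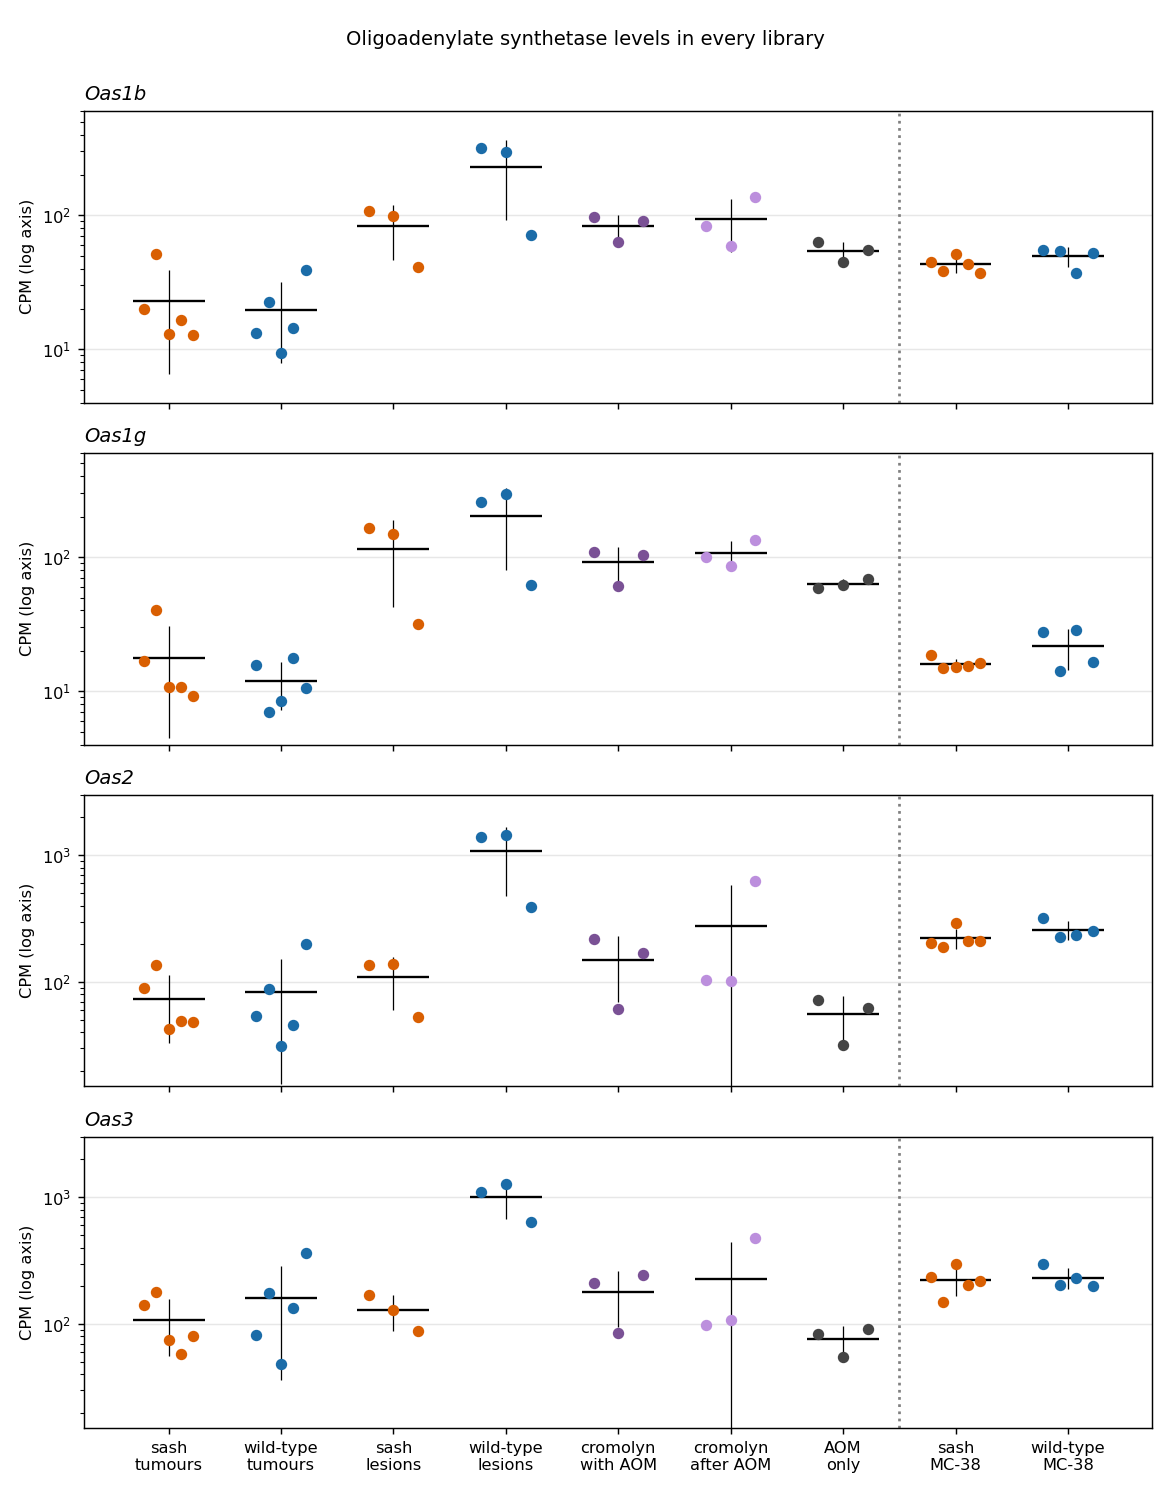
CPM of Oas1b, Oas1g, Oas2 and Oas3 in every library, on log axes that differ between panels. Each point is 1 library, the horizontal line the group mean and the thin vertical line 1 SD to either side (cut off at the lower edge of the axis where mean minus SD falls below it), and the dotted line parts the separately normalised MC-38 table. Wild-type lesions have the highest mean of all 4 genes among the AOM groups, up to 1451 CPM of Oas2 and 1265 CPM of Oas3.

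In sash lesions Oas2, one of the larger synthetases, stood at 136, 139 and 53.1 CPM in replicates 1, 2 and 3, against 1393, 1451 and 388 CPM in wild-type lesions 1, 2 and 3. Every sash library lay below every wild-type library. The log2 difference, sash minus wild type, was −3.36 (SE 0.56), with means of 109 ± 48.8 CPM in sash and 1078 ± 598 CPM in wild type (SD, n = 3 each).

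Oas3, the largest synthetase, stood at 170, 129 and 88.4 CPM in sash lesions and at 1095, 1265 and 634 CPM in wild-type lesions. Again the genotypes did not overlap. Its log2 difference was −2.99 (SE 0.34), with means of 129 ± 40.8 CPM in sash and 998 ± 327 CPM in wild-type lesions.

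Oas1b was measured at 107, 98.6 and 41.3 CPM in sash lesions and at 320, 297 and 70.6 CPM in wild-type lesions. Oas1g had 165, 150 and 31.8 CPM in sash lesions and 256, 294 and 62.2 CPM in wild-type lesions. For both genes replicate 3 was the lowest library of its genotype, and wild-type lesion 3 lay within the range of the sash lesions. The log2 differences were −1.53 (SE 0.59) for Oas1b and −0.88 (SE 0.68) for Oas1g.

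Over the panel, the call used throughout was an adjusted p below 0.05 over all genes tested in edgeR. Of the 775 genes tested in lesions 22 were called, or 2.84%, and 2.32% were called lower, while 14.2% had separate groups with sash lower. Since the 4 genes were chosen on this contrast, nothing is read from these shares for them. Deviations of same-numbered lesions of the 2 genotypes had correlations of 0.163 to 0.521, but no label pairs these samples. With the replicate number as a block the difference of Oas1b was −1.37 (SE 0.30), with 84 panel genes called in place of 22. Without sash lesion 2 the log2 differences of Oas2 and Oas3 were −3.56 and −2.98, and 0 panel genes were called.

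Other cell types differed between the same lesions. The summed CPM of the 8 B cell genes on the panel was 47.2 to 261 in sash and 718 to 2672 in wild-type lesions, and their defining gene Ms4a1 was at 11.8 to 78.8 CPM in sash and 307 to 1102 CPM in wild type. Lymphoid follicle genes (6 on the panel) summed to 243 to 269 CPM in sash and 573 to 1655 CPM in wild type. The 7 mast cell genes summed to 150 to 164 CPM in sash and 393 to 551 CPM in wild type. Most of that sum was Kit itself, at 114 to 143 CPM in sash and 334 to 509 CPM in wild type. The mast cell protease gene Cpa3 was at 0 in all 3 sash libraries and at 1.52 to 22.6 CPM in wild type. Of the 7 mast cell genes 2 were tested and 1 was called lower. Of 3 surface colonocyte genes tested, 2 were called lower in sash lesions (median log2 difference −2.74). Their sums overlapped, at 34715 to 63893 CPM in sash and 31615 to 50891 CPM in wild type. The part of these cell types in the Oas difference was not tested.

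The wild-type lesions can also be set beside the AOM-only colons, because treatment and age are labelled alike. Column names of the wild-type lesions, the sash lesions and the AOM-only set carry different codes whose meaning is not given, so the set a library came from and its group cannot be told apart. The wild-type lesion libraries are also those whose high values were known beforehand, so this comparison is not independent of the choice of genes and is given as a description. Oas2, Oas3 and Oas1b were higher in every wild-type lesion than in any AOM-only colon, and Oas1g overlapped.

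Oas2 was at 1393, 1451 and 388 CPM in wild-type lesions against 72.4, 32.0 and 62.9 CPM in AOM-only colons. The libraries of the groups were far apart, with the lowest lesion above the highest AOM-only colon. The log2 difference was 4.24 (SE 0.54), which is 18.9-fold.

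Oas3 was at 1095, 1265 and 634 CPM in wild-type lesions against 84.1, 54.5 and 91.3 CPM in AOM-only colons, again without overlap. It was 12.6-fold higher (log2 difference 3.66, SE 0.32). Oas1b, at 320, 297 and 70.6 CPM in wild-type lesions against 63.1, 45.1 and 54.8 CPM in AOM-only colons, had a log2 difference of 2.03 (SE 0.53). For Oas1g the lowest lesion, at 62.2 CPM, lay within the AOM-only range of 58.4 to 69.0 CPM, and its log2 difference was 1.64 (SE 0.52).

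Of the 762 genes tested here 119 were called, or 15.6%, and 8.66% were called higher, while 21.1% had separate groups with lesions higher. Nothing is read from these shares for the 4 genes. On leaving out any 1 library 11 to 268 panel genes were called.

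Sash lesions stood closer to the AOM-only colons. Their Oas3, at 88.4 to 170 CPM, overlapped the AOM-only range of 54.5 to 91.3 CPM, as did Oas2 at 53.1 to 139 CPM against 32.0 to 72.4 CPM. No test was run between these 2 groups. B cell sums also differed between wild-type lesions and AOM-only colons (718 to 2672 against 162 to 369 CPM), as did macrophage sums (1200 to 1429 against 1548 to 1753 CPM) and Epcam (21429 to 25517 against 16021 to 17397 CPM). Of 3 surface colonocyte genes tested, 2 were called higher in wild-type lesions (median log2 difference 2.12), while their sums overlapped. The part of these cell types in the result was not tested.

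**Figure D2:**
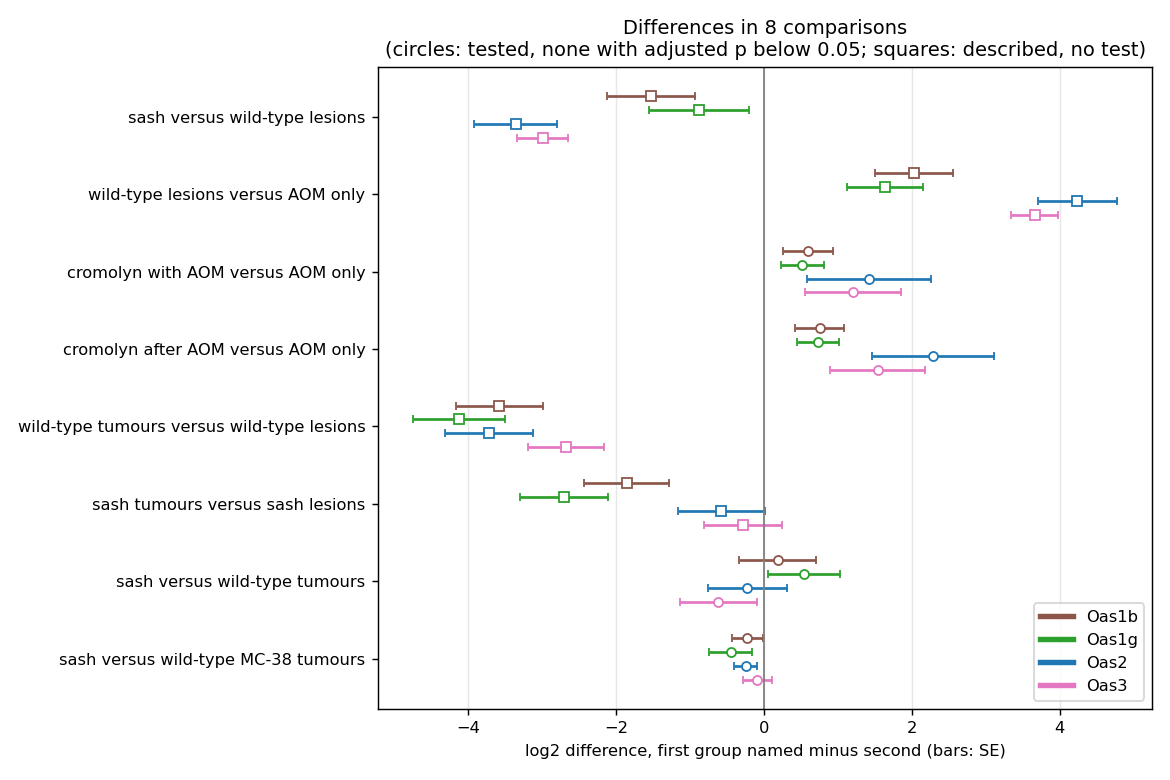
log2 differences of Oas1b, Oas1g, Oas2 and Oas3 in 8 comparisons, the first group named minus the second, with bars of 1 SE. Circles mark comparisons tested in edgeR, none with an adjusted p below 0.05 over all panel genes, and squares mark those with the lesion libraries on which the genes were chosen, given without a test. Oas2 and Oas3 have their largest positive values in wild-type lesions against AOM only (4.24 and 3.66).

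Cromolyn was given to ask whether stabilised mast cells change the early response to AOM. All 4 synthetase genes had a higher mean in both cromolyn groups than in AOM-only colons, but none of them passed. Both comparisons share the AOM-only libraries, so their directions are not independent. The B cell sum moved with them, at 477 to 2211 CPM with cromolyn during AOM and 324 to 1978 CPM with cromolyn after AOM, against 162 to 369 CPM for AOM only. Only the sums with cromolyn during AOM were separate from AOM only. None of the 7 tested B cell genes passed, at median log2 differences of 1.99 during and 2.02 after AOM. With cromolyn after AOM, surface colonocyte sums were lower without overlap (10872 to 25250 against 32524 to 45568 CPM). Epcam was likewise lower (12110 to 15018 against 16021 to 17397 CPM). Mast cell sums were higher without overlap (535 to 764 against 381 to 479 CPM). Most of that sum was Kit itself (467 to 660 against 315 to 418 CPM), while Cpa3 overlapped (28.6 to 52.9 against 18.8 to 34.5 CPM). Of the mast cell genes 2 were tested and 0 were called. In the same comparison 2 of 6 lymphoid follicle genes and 1 of 3 surface colonocyte genes were called higher. The part of these cell types in the Oas values was not tested.

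With cromolyn during AOM, Oas2 stood at 220, 61.3 and 171 CPM against 72.4, 32.0 and 62.9 CPM for AOM only, and Oas3 at 209, 84.2 and 244 CPM against 84.1, 54.5 and 91.3 CPM. Replicate 2 of the cromolyn group lay within the AOM-only range for both genes. The log2 differences were 1.42 (SE 0.84, adjusted p = 0.424) for Oas2 and 1.20 (SE 0.65, adjusted p = 0.384) for Oas3.

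Oas1b had 96.8, 63.2 and 90.0 CPM with cromolyn during AOM against 63.1, 45.1 and 54.8 CPM for AOM only (log2 difference 0.60, SE 0.34, adjusted p = 0.386). Its lowest cromolyn library only just cleared the highest AOM-only library. Oas1g had 110, 61.3 and 104 CPM against 58.4, 62.1 and 69.0 CPM, with overlap (0.52, SE 0.29, adjusted p = 0.385). Of 768 genes 2 were called (0.26%), and 13.8% had separate groups with cromolyn higher, so 1 of 4 synthetases with separate groups is near the share of the panel.

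With cromolyn after AOM the values were 104, 101 and 627 CPM for Oas2 and 97.7, 107 and 476 CPM for Oas3. Replicate 3 was far above the others for both genes. All 3 libraries lay above every AOM-only library for both genes, although replicates 1 and 2 cleared the highest AOM-only Oas3 value (91.3 CPM) narrowly. The log2 differences were 2.29 (SE 0.82, adjusted p = 0.155) for Oas2 and 1.54 (SE 0.64, adjusted p = 0.205) for Oas3.

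Oas1b was at 83.5, 59.1 and 137 CPM and Oas1g at 99.8, 85.7 and 135 CPM with cromolyn after AOM. For Oas1g all 3 exceeded the AOM-only colons and for Oas1b 2 of 3 did. The log2 differences were 0.75 (SE 0.33, adjusted p = 0.212) for Oas1b and 0.73 (SE 0.29, adjusted p = 0.160) for Oas1g. Each of the 4 genes had an unadjusted p below 0.05 (0.0230 to 0.0424), as did 168 of all 768 genes tested. After adjustment 37 of 768 genes were called (4.82%), none of them one of the 4. On leaving out any 1 library of these groups, 1 to 8 panel genes were called. Separate groups with cromolyn higher were seen in 3 of the 4, against 13.8% of the panel. Without cromolyn-after-AOM replicate 3 the differences of Oas2 and Oas3 were 0.90 (adjusted p = 0.373) and 0.43 (adjusted p = 0.629). That library also had the highest B cell sum of its group, 1978 CPM against 324 and 844 CPM in the others, and its part in the Oas values was not tested.

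Between cromolyn during and after AOM the 4 genes differed by −0.87 (Oas2, SE 0.76) to −0.15 (Oas1b, SE 0.32), with adjusted p of 0.766 to 0.947. No panel gene of 768 was called by edgeR (0%), 64 had an unadjusted p below 0.05 and DESeq2 called 6. Without replicate 3 of the later cromolyn group the differences were 0.22 for Oas1b, 0.55 for Oas2 and 0.80 for Oas3.

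Tumours set the established stage beside the early one. Age and the number of AOM injections also differ between them, so stage, age and dosing cannot be told apart, and the lesion libraries are again those known from the choice of genes. The 4 genes are therefore described without a test. In wild-type mice all 4 synthetases were lower in every tumour than in any lesion. In sash mice tumours and lesions overlapped for all 4. Of the 5 sash tumours, 4 lay below every sash lesion for Oas1b and Oas1g, and 3 did for Oas2 and Oas3.

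Oas1g had 15.6, 7.05, 8.40, 17.6 and 10.6 CPM in the 5 wild-type tumours, numbered 1 to 5, against 256, 294 and 62.2 CPM in wild-type lesions. Its values in the sash tumours, numbered likewise, were 16.8, 40.6, 10.8, 10.8 and 9.16 CPM, against 165, 150 and 31.8 CPM in sash lesions. All 5 wild-type tumours and 4 of 5 sash tumours lay below every lesion of their genotype. The log2 differences of Oas1g, tumours minus lesions, were −4.12 in wild-type (SE 0.62) and −2.70 in sash mice (SE 0.60).

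Oas1b had 13.1, 22.6, 9.45, 14.5 and 39.0 CPM in wild-type tumours, against 320, 297 and 70.6 CPM in wild-type lesions. Its sash tumours had 19.8, 51.3, 13.1, 16.6 and 12.8 CPM, against 107, 98.6 and 41.3 CPM in sash lesions. The pattern was that of Oas1g, with sash tumour 2 as the one tumour inside the lesion range. Its log2 differences were −3.58 in wild-type (SE 0.59) and −1.85 in sash mice (SE 0.58).

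Oas2 was measured at 54.2, 88.8, 31.5, 45.5 and 201 CPM in wild-type tumours and Oas3 at 81.3, 175, 48.3, 133 and 365 CPM. Wild-type tumour 5 was the highest for both, and still below wild-type lesion 3, the lowest lesion (388 and 634 CPM). The log2 differences were −3.72 for Oas2 (SE 0.59) and −2.68 for Oas3 (SE 0.51).

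In sash tumours Oas2 stood at 90.0, 137, 42.3, 49.0 and 48.5 CPM, against 136, 139 and 53.1 CPM in sash lesions. Oas3 stood at 142, 178, 74.6, 58.1 and 80.6 CPM, against 170, 129 and 88.4 CPM. Tumours and lesions of sash mice overlapped for both genes, at log2 differences of −0.57 (SE 0.59) for Oas2 and −0.28 (SE 0.53) for Oas3. The sash-minus-wild-type difference was greater in tumours than in lesions by 3.14 for Oas2 (SE 0.86), 2.40 for Oas3 (SE 0.75), 1.72 for Oas1b (SE 0.84) and 1.42 for Oas1g (SE 0.87). No test is given for these values, since the lesion difference enters them.

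Background was high in both stage comparisons. Of 848 genes 314 were called in wild-type mice (37%, with 17.6% lower, and 11.7% with separate groups and tumours lower) and 403 in sash mice (47.5%, with 23.6% lower). Nothing is read from these shares for the 4 genes. Neutrophil sums (62.0 to 257 against 6.06 to 8.84 CPM in wild-type tumours and lesions, and 367 to 735 against 7.16 to 15.3 CPM in sash tumours and lesions) and macrophage sums were higher in tumours of both genotypes. Surface colonocyte genes were lower, at 1353 to 17023 against 31615 to 50891 CPM in wild-type and 826 to 2612 against 34715 to 63893 CPM in sash tumours and lesions. Lymphocyte genes were lower as well in wild-type tumours, with 5 of 7 tested B cell genes, 3 of 6 lymphoid follicle genes and 4 of 9 T cell genes called lower (1 T cell gene higher). B cell sums were 21.7 to 751 CPM in wild-type tumours against 718 to 2672 CPM in wild-type lesions, and 14.5 to 51.5 CPM in sash tumours against 47.2 to 261 CPM in sash lesions, where no B cell gene passed. Wild-type tumour 2, at 751 CPM, was the only one above 37.8 CPM. The part of these cell types in the Oas values was not tested.

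The tumours can also be set beside the AOM-only colons, which took no part in the choice of genes, as a description. Age (32 against 14 weeks) and AOM injections (6 against 3) differ here too and cannot be told apart from stage. The share of the panel with separate groups is not at hand for this comparison, so nothing is read from the counts of libraries. Oas1g lay at 7.05 to 40.6 CPM in the 10 tumours and at 58.4 to 69.0 CPM in AOM-only colons, so that all 10 tumours were lower. For Oas1b 9 of 10 tumours were below every AOM-only colon. Oas2 (31.5 to 201 CPM against 32.0 to 72.4 CPM) and Oas3 (48.3 to 365 CPM against 54.5 to 91.3 CPM) overlapped, with 4 and 5 of the 10 tumours above every AOM-only colon and 1 below.

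Between sash and wild-type tumours none of the 4 synthetases passed. The log2 differences were 0.19 (SE 0.52, adjusted p = 0.853) for Oas1b, 0.54 (SE 0.49, adjusted p = 0.556) for Oas1g, −0.23 (SE 0.53, adjusted p = 0.837) for Oas2 and −0.62 (SE 0.52, adjusted p = 0.539) for Oas3. Of 797 genes edgeR called 0 (0%), while 159 had an unadjusted p below 0.05 and DESeq2 called 82, none of them a synthetase of the 4. The libraries of both genotypes overlapped for each of the 4. The highest value of Oas1b and Oas1g was in sash tumour 2 and that of Oas2 and Oas3 in wild-type tumour 5, and the sign of 3 of the 4 differences turned on leaving out 1 library.

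The MC-38 tumours ask the genotype question in grafts, where mast cell genes differed, with sums of 10.3 to 34.9 CPM in sash hosts against 391 to 1163 CPM in wild-type hosts. None of the 4 synthetases passed between hosts. Oas3 stood at 236, 149, 299, 203 and 218 CPM in sash replicates 1, 2, 4, 5 and 6, against 295, 205, 229 and 200 CPM in wild-type replicates 1, 3, 4 and 5. The ranges overlapped widely (log2 difference −0.09, SE 0.19, adjusted p = 0.810).

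Oas2 stood at 203, 189, 290, 211 and 210 CPM in sash hosts against 323, 228, 235 and 251 CPM in wild-type hosts. All but sash replicate 4 lay below every wild-type library, and the difference of −0.25 (SE 0.16) had an adjusted p of 0.362. Oas1b was at 37.2 to 51.0 CPM in sash and 36.9 to 55.1 CPM in wild-type hosts (−0.22, SE 0.21, adjusted p = 0.554). Oas1g was at 14.9 to 18.5 CPM in sash and 14.2 to 28.5 CPM in wild-type hosts (−0.45, SE 0.29, adjusted p = 0.366). Of 714 genes 9 were called (1.26%), none of them one of the 4. The SE of 0.16 to 0.29 is smaller here than in the AOM tumours (0.49 to 0.53).

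The remaining family entries were read in the same libraries. Oas1a and Oas1c, further synthetases of the Oas1 cluster, and Oasl1, a related protein without synthetase activity that in mouse restrains Irf7, had enough counts for a test. Oas1e and Oas1h had 0 counts in every library (a count of 0 allows a true value of up to 3), Oas1f had 0 or 1, and Oas1d had 0 to 7. In lesions the log2 differences, sash minus wild type, were −1.28 (SE 0.43) for Oas1a, −0.81 (SE 0.38) for Oas1c and −1.39 (SE 0.26) for Oasl1. All 3 were smaller in size than those of Oas2 and Oas3, but the genes were picked on this contrast, so nothing is read from that order. Those of Oas1a and Oasl1 were larger in size than that of Oas1g (−0.88). Both genes were lower in every sash lesion than in any wild-type lesion, as was 14.2% of the panel, while Oas1b and Oas1g overlapped.

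Oasl1 was at 406 ± 60.0 CPM in sash lesions, 1041 ± 303 CPM in wild-type lesions and 166 ± 32.8 CPM in AOM-only colons (SD, n = 3 each). Its log2 difference between wild-type lesions and AOM only was 2.60 (SE 0.27). Sash lesions lay above the AOM-only colons, at 345 to 465 CPM against 141 to 203 CPM, which was not tested. In wild-type tumours against wild-type lesions the log2 differences were −2.55 for Oas1a (SE 0.48), −1.24 for Oas1c (SE 0.41) and −1.45 for Oasl1 (SE 0.46). In sash tumours against sash lesions they were −1.28 for Oas1a (SE 0.48), −0.76 for Oas1c (SE 0.42) and −0.73 for Oasl1 (SE 0.47). These comparisons rest on the same lesion libraries and are given without a test.

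**Figure D3:**
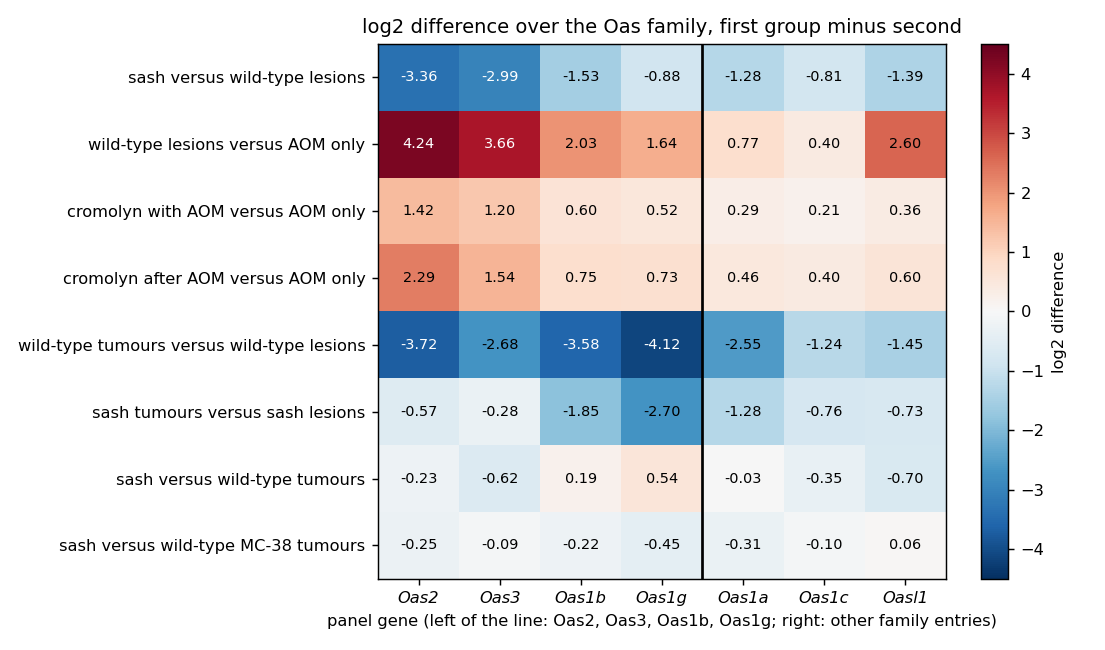
Map of log2 differences of the 7 tested family entries (columns) in 8 comparisons (rows), the first group named minus the second, with the value printed in each cell. Red is higher and blue lower in the first group. Oas2 and Oas3, picked with the lesion results known, have the most extreme values in the top 2 rows (−3.36 and −2.99, then 4.24 and 3.66). Oas1g and Oas1b are lower in tumours of both genotypes.

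The wider interferon pathway was followed with a list of the other synthetase entries, sensors, ligands, receptors, signalling factors and induced genes, of which 38 of 85 names were on the panel. In lesions 5 of its 30 tested genes were called lower in sash (2.32% of the panel) and none higher. The median log2 difference of the list was −0.47, against 0.05 for all genes. The called genes included the transcription factor gene Irf7 (−1.89, SE 0.25), the tetherin gene Bst2 (−1.67, SE 0.25) and the nuclear body gene Sp100 (−1.47, SE 0.23). Of the 3 interferon genes themselves, none had enough counts for a test in any comparison of the AOM table. The pathway was picked with these lesion results known, so its counts there, and in the other comparisons with these lesions, are not independent evidence.

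In wild-type lesions against AOM-only colons 13 of 30 pathway genes rose and none fell, where 8.66% of the panel was called higher. The median of the list was 0.58, against 0.01 for all genes. Irf7 averaged 4037 ± 1108 CPM in wild-type lesions and 772 ± 58.5 CPM in AOM-only colons (log2 difference 2.34, SE 0.24). Irf9, a DNA-binding factor of the interferon response, rose by 1.32 (SE 0.18), and Irf5, an interferon regulatory factor of immune cells, by 3.95 (SE 0.43). Irf5 was at 112 CPM in wild-type lesions but at 6.72 ± 2.43 CPM in AOM-only colons, a few counts per library. It passed the count filter through the lesions, where it was high, so the size of its difference is uncertain. No p-value is given for the 3 factors, since the pathway was picked with the lesion results known. These 3 factors were named from the called genes, all of which rose, so nothing is read from their sharing the direction of the synthetases. Of the 10 signalling genes tested, called or not, 7 had a difference above 0 and 3 below.

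Pathway genes moved both ways with stage. In wild-type mice 14 of 31 genes fell and 3 rose in tumours, where 17.6% of the panel was called lower and 37% in either direction. In sash mice 12 fell and 2 rose, where 23.6% was called lower and 47.5% in either direction. Irf1, an interferon-induced transcription factor, fell by 1.13 in wild-type (SE 0.18) and fell by 1.80 in sash tumours (SE 0.18). Opposite to the synthetases, Ifitm3, a membrane protein that blocks viral entry, rose by 1.94 (SE 0.34) and by 3.27 (SE 0.37) in wild-type and sash tumours. Tmem173, which encodes the DNA-sensing adaptor STING, rose by 2.35 (SE 0.30) in wild-type and by 2.87 (SE 0.31) in sash tumours. The median of the pathway genes was −0.72 in wild-type and −0.73 in sash tumours. No p-value is given for these genes, since the comparisons use the same lesion libraries.

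Under cromolyn after AOM 3 of 29 pathway genes rose and none fell, where 4.82% of the panel was called in either direction. These were the nucleic acid sensor gene Zbp1 (log2 difference 1.18, SE 0.21, adjusted p = 0.0257), the cytokine signalling inhibitor gene Socs1 (1.53, SE 0.37, adjusted p = 0.0411) and the RNA-editing enzyme gene Adar (0.65, SE 0.16, adjusted p = 0.0428). On leaving out each of the 6 libraries in turn, Zbp1 and Adar were each called in 1 of 6 fits and Socs1 in 0, at adjusted p of up to 0.142. With cromolyn during AOM 0 of 29 were called (8 had an unadjusted p below 0.05). Neither AOM tumours (0 of 30, 4 unadjusted) nor MC-38 tumours (0 of 32, 8 unadjusted) had a called pathway gene between genotypes in edgeR.

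The synthetases also varied together within groups. Taking each library's log2 deviation from its group mean over the 25 AOM libraries, Oas2 and Oas3 had a Pearson r of 0.932 and a Spearman rho of 0.837 (permutation within groups, two-sided, adjusted p = 6e-05 and 0.00012 over the 6 pairs). Oas1b and Oas2 had r = 0.889 and rho = 0.915 (adjusted p = 3e-05 and 6e-05, from raw values of 1e-05, the smallest that 100000 permutations can give). Oas1b and Oas3 had r = 0.790 and rho = 0.779 (adjusted p = 3e-05 and 0.00012). In each of these 3 pairs a library high for 1 gene tended to be high for the other.

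For Oas1g the correlations were lower. Its r was 0.774 with Oas1b (rho 0.712, adjusted p = 0.00522 and 0.00653), 0.624 with Oas2 (rho 0.672, adjusted p = 0.00411 and 0.00354) and 0.500 with Oas3 (rho 0.509, adjusted p = 0.0046 and 0.0123). Without the 2 libraries farthest from the median of the first gene, the pair of Oas1b and Oas1g had r = 0.641 and no longer passed (adjusted p = 0.0737). Deviations were still taken from the means of the full groups, so these values cannot settle whether the relation rests on those libraries. The other pairs had r of 0.481 to 0.925 and passed. Without the 6 lesion libraries, a choice made after the data were seen, Oas2 and Oas3 had r = 0.951, and the 3 pairs with Oas1g had r of 0.484 to 0.595 (adjusted p = 0.0464 each), with rho no longer passing (adjusted p = 0.0813 to 0.0997).

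In the 9 MC-38 libraries none of the 6 pairs passed in an exact permutation test over 2880 arrangements. Oas2 and Oas3 had r = 0.851 (adjusted p = 0.0625, rho 0.633), and 0.544 without the 2 libraries farthest from the median. All values of a library share its depth and scaling. Scaling by library totals gave r of 0.484 to 0.933 in the AOM table, and the 6 pairs passed there too.

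**Figure D4:**
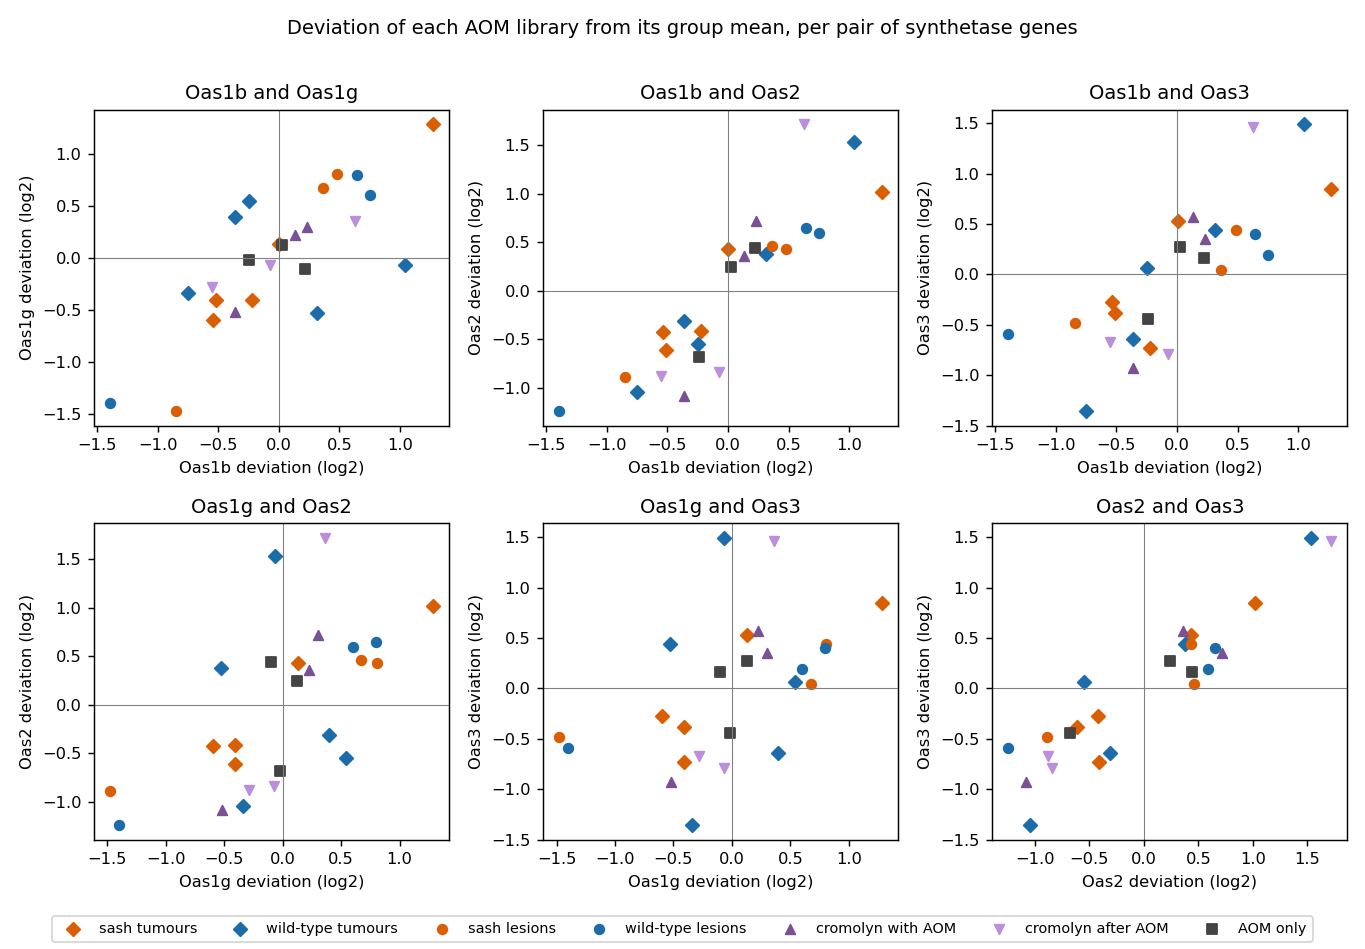
Deviation of each of the 25 AOM libraries from the mean of its group (log2 CPM), for each pair of the 4 synthetases, with colour and shape for the group. Points of Oas2 and Oas3 lie near a line (r = 0.932), while those of Oas1g and Oas3 scatter more (r = 0.500). Wild-type lesion 3 and sash lesion 3 lie low for Oas1b, Oas1g and Oas2.

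Across all 25 AOM libraries, the panel genes whose log2 CPM was most like the mean of the 4 synthetases were H2-T24 (r = 0.942), a class I-like gene, Sp100 (0.886), Oas1a (0.880), Zbp1 (0.861) and B2m (0.856), which encodes the invariant class I subunit, out of 842 genes ranked. Oas1a had the highest likeness within groups (r = 0.903), and H2-T24 the next (0.878). Oas1g is part of the mean, and 45.2% of its 50-base words occur in Oas1a, so shared reads could have raised the likeness of Oas1a. Oas1c was ninth, and Oasl1 was at rank 58 by the whole pattern (r = 0.672) and at rank 6 within groups (0.784). H2-T24 stood at 103 ± 26.4 CPM in sash lesions, 639 ± 399 CPM in wild-type lesions and 94.7 ± 26.9 CPM in AOM-only colons. H2 genes form a multigene family, and since their shared sequence was not measured here, this level is uncertain.

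In the 9 MC-38 libraries the likeness ran to Cd72 (r = 0.874), a B cell and myeloid surface receptor gene, H2-Q4 (0.857), a class I gene, Abcc4 (0.849), a transporter gene, Lair1 (0.817), an inhibitory receptor gene, and Glg1 (0.809), a Golgi protein gene, of 708 genes. Oas1a was at rank 35 there. With 9 libraries such an order is loose, and these values describe the libraries only.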

How the data were processed

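The study read RNA with the QIAseq Targeted RNA Mouse Immuno-Oncology panel, which amplifies 1 short stretch per chosen transcript, on a MiSeq. The values deposited by the authors are whole-number counts per gene in 2 tables, 25 AOM and 9 MC-38 libraries. Of 36 labelled samples 2 (MC-38 wild-type replicate 2 and sash replicate 3) were not analysed here. Per the submitters' processing notes the build was mm9 and DESeq2 was used. Not given in the sources used here are the aligner, the counting program and whether reads or molecular tags were counted. Control entries (5 per table, at 0 throughout) were left out.

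The test on the counts was edgeR's quasi-likelihood test (version 4.0.16, R 4.3.3), run on TMM-scaled libraries after filterByExpr (minimum count 10, minimum total 15), with Benjamini-Hochberg adjustment over all genes tested. Each sash and wild-type pair was fitted on its own, as were wild-type lesions with AOM only. The 3 groups of the cromolyn experiment were fitted together, as were the 4 tumour and lesion groups for stage. CPM are relative to TMM-scaled totals of a table, mean ± SD. The correlations used log2 CPM with a prior count of 2. Alternatives were DESeq2 1.42.0, RLE factors, library totals, no filter, a replicate block and leaving out each library. Scripts were tested on simulated data. Floors and depth cover counting error only. No replicate pair agreed within sampling noise (chi-square per degree of freedom of at least 5.85 over 51 pairs).

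No label pairs the lesion samples. Deviations of same-numbered sash and wild-type lesions had correlations of 0.387, 0.163 and 0.521. Same-numbered MC-38 tumours had 0.264, 0.00525 and 0.641, so such values do not establish a pairing. Members, gene lists and named genes (the 4 synthetases, the 5 genes most like them per table, up to 4 passing pathway genes of smallest p) were chosen with earlier results of these data known. Comparisons of the 4 genes and of the named pathway genes that use lesion libraries were fitted in the same way. Their values are given without p-values for that reason.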

Additional observations from a re-analysis of the deposited data

Results flagged for a closer look

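Of 16 groups of 4 or 5 libraries checked for a library far from the others, 4 had one, where chance flags about 1 in 20. Sash tumour 2 was far above the other sash tumours for Oas1b (51.3 CPM) and for Oas1g (40.6 CPM). Oas2 in MC-38 tumours of sash hosts was far higher in replicate 4 (290 CPM), and Oas1b in MC-38 tumours of wild-type hosts was far lower in replicate 4 (36.9 CPM).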

How the results depend on the processing

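Over 440 values of the 4 genes in the 9 comparisons and all alternatives, 413 kept their direction and their side of the threshold, 10 lost and 4 gained the call, and 13 changed sign, none of the 13 in a called difference. Leaving out 1 library each, the number of the 4 genes called ran from 0 to 3 in sash against wild-type lesions, 1 to 2 in sash tumours against sash lesions and 2 to 4 in wild-type lesions against AOM only, and it did not change in the other comparisons. Calls of the 4 genes in comparisons with lesion libraries come after a choice made on those libraries and test nothing. With the other alternatives it was 2 to 3 in lesions and 3 to 4 in wild-type lesions against AOM only. Leaving out 1 library also turned signs. In sash against wild-type tumours the log2 difference ran from −0.35 to 0.58 for Oas1b, −0.020 to 0.71 for Oas1g and −0.58 to 0.37 for Oas2, and in MC-38 tumours from −0.21 to 0.048 for Oas3, which was 0.0098 with the replicate block. For cromolyn with against after AOM it ran from −0.39 to 0.22 (Oas1b), −0.37 to 0.0084 (Oas1g), −1.26 to 0.55 (Oas2) and −0.69 to 0.80 (Oas3). The cause was not tested. No label pairs samples by replicate number. In the lesions the block on that number brought 84 panel genes in place of 22 and Oas1b. In the other comparisons the block changed no call of the 4 genes. It gave 3 panel genes in MC-38 tumours in place of 9, 7 for cromolyn with AOM in place of 2 and 21 for cromolyn after AOM in place of 37. DESeq2 called 82 panel genes in tumours (edgeR 0), 70 in lesions (22), 51 in MC-38 tumours (9), 39 for cromolyn with AOM (2) and 6 for cromolyn with against after AOM (0). Library totals gave 18 for cromolyn with AOM, 2 in tumours and 3 for cromolyn with against after AOM, and no filter gave 36 in lesions. Leaving out 1 library, the panel genes called ran from 0 to 68 in lesions, 11 to 268 in wild-type lesions against AOM only (edgeR 119), 1 to 8 for cromolyn after AOM, 0 to 15 for cromolyn with AOM, 0 to 17 in tumours, 3 to 17 in MC-38 tumours and 183 to 367 in wild-type tumours against lesions (314). With 3 libraries in a group, leaving out 1 library changed calls of all 4 genes. Counts were 5 to 196 per library for Oas1b and Oas1g, which limits their precision.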

Other observations

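Oas1d, a synthetase gene of the Oas1 cluster with too few counts for a test, had its highest level with cromolyn after AOM, at 10.2 to 13.3 CPM, against 0 to 7.52 CPM in AOM-only colons. In sash tumours it was at 0 to 1.83 CPM and in wild-type tumours at 0 to 4.14 CPM. It had 0 counts in the sash MC-38 tumours and 2 in the wild-type ones. These are counts of 0 to 7 per library and were not tested.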
